A study of Homo sapiens with 6 samples.

Results

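The genes described here are 33 genes of ribosome biogenesis: nucleolar proteins, the core proteins of the small nucleolar ribonucleoproteins (snoRNPs), subunits and factors of RNA polymerase I, and processing factors of ribosomal RNA (rRNA). They were listed by symbol for their function, with no measured value in the rule, but with earlier results of these data known. All 33 symbols matched 1 Ensembl gene each among the 58336 genes counted. A2780 cells, an established human ovarian cancer line, received DMSO vehicle or, for 48 h, 6 µM TH588 (TH-588 in the sample labels). TH588 is an inhibitor of MTH1, an enzyme that clears oxidized nucleotides. The sample labels give a time for TH588 only. Each treatment had 3 libraries (replicates A, B and C) from independent experiments, all in the same serum-containing medium with insulin. The comparison therefore covers 1 line, with 1 dose and 1 time of TH588. PolyA RNA was sequenced, and the authors deposited raw read counts per gene. Values are given as CPM (a gene's reads per 1000000 reads of its library), scaled by edgeR's TMM factors, with the mean ± SD over 3 libraries, and as CPM per kb of gene length where levels of different genes are compared. A gene is called lower or higher where edgeR's quasi-likelihood test over 15844 genes gave a Benjamini-Hochberg adjusted p under 0.05.

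Ribosomes are assembled mainly in the nucleolus. RNA polymerase I transcribes a long precursor rRNA, snoRNPs guide its methylation and pseudouridylation, and a large set of processing factors cuts and folds it into the small and large subunits. The pathway consumes much of the energy of a growing cell and is known to be raised in many cancers and to respond to growth signals, among them MYC, and its disturbance is known to activate p53.

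Total counts were 28537837 in TH588 replicate A and 77634048 to 99074175 in the other 5 libraries. The small nucleolar RNA SNORD3A took 21.94% of the counts of TH588 replicate A, against 7.68% to 12.95% elsewhere. Of 8 markers of ovarian or epithelial tumour cells, 2 passed the filter on low counts and both were called higher (EPCAM from 0.644 ± 0.212 to 4.74 ± 0.350 CPM and KRT18 from 3.56 ± 0.373 to 6.54 ± 0.435 CPM), and PAX8 and CDH1 did not exceed 0.0240 CPM in any library. The sum of the 8 ranged from 3.82 to 4.60 CPM with DMSO and from 10.9 to 12.2 CPM with TH588. Of 7 fibroblast markers 4 were called higher, and their sum, most of it COL3A1, was 1609.6 to 1934 CPM with DMSO and 1909.6 to 2649 CPM with TH588. The 6 immune and 4 endothelial markers summed to at most 1.36 and 0.149 CPM, with CD3E at 0 in every library. The part of these differences in the results was not tested, and in bulk RNA a smaller share of cells that express a gene and less RNA per cell cannot be told apart.

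Transcripts of ribosome biogenesis were lower after TH588 across every role examined. Of the 33 genes, 29 were called lower and 0 were called higher, where 25.3% of all genes tested were lower and 24.2% were higher. A fall past 1.5-fold was called for 19 of the 33, against 13.0% of all genes. All 3 TH588 libraries lay below all 3 DMSO libraries for 31 of the 33, against 29.0% of all genes. The median log2 fold change of the 33 was -0.67, against 0.02 over all genes, and single genes ranged from -1.36 for EBNA1BP2 to 0.16 for NOP10. The 4 genes without a call were NOP10, POLR1D, RCL1 and NOP2. Together the 33 genes took 15613, 14376 and 14981 CPM of the DMSO libraries (A, B, C in that order, as below) and 8529.6, 9105 and 8668 CPM of the TH588 libraries. NPM1 and NCL made up most of these reads, and the other 31 genes summed to 5632 to 5832 CPM with DMSO and 3371 to 3577 CPM with TH588. When only library size was normalized for, 26 of the 33 remained lower, with a median of -0.56, while the median of all genes moved to 0.13 and the share of calls that were higher went from 48.9% to 60.4%. The genes also fell beside those of DNA replication: all 20 genes of an S phase list were lower, with a median of -1.21 and the largest falls for CDC6 (-1.95), GINS2 (-1.87) and CDC45 (-1.76), and the part of a change in cell cycle state in the values below was not tested.

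**Figure D1:**
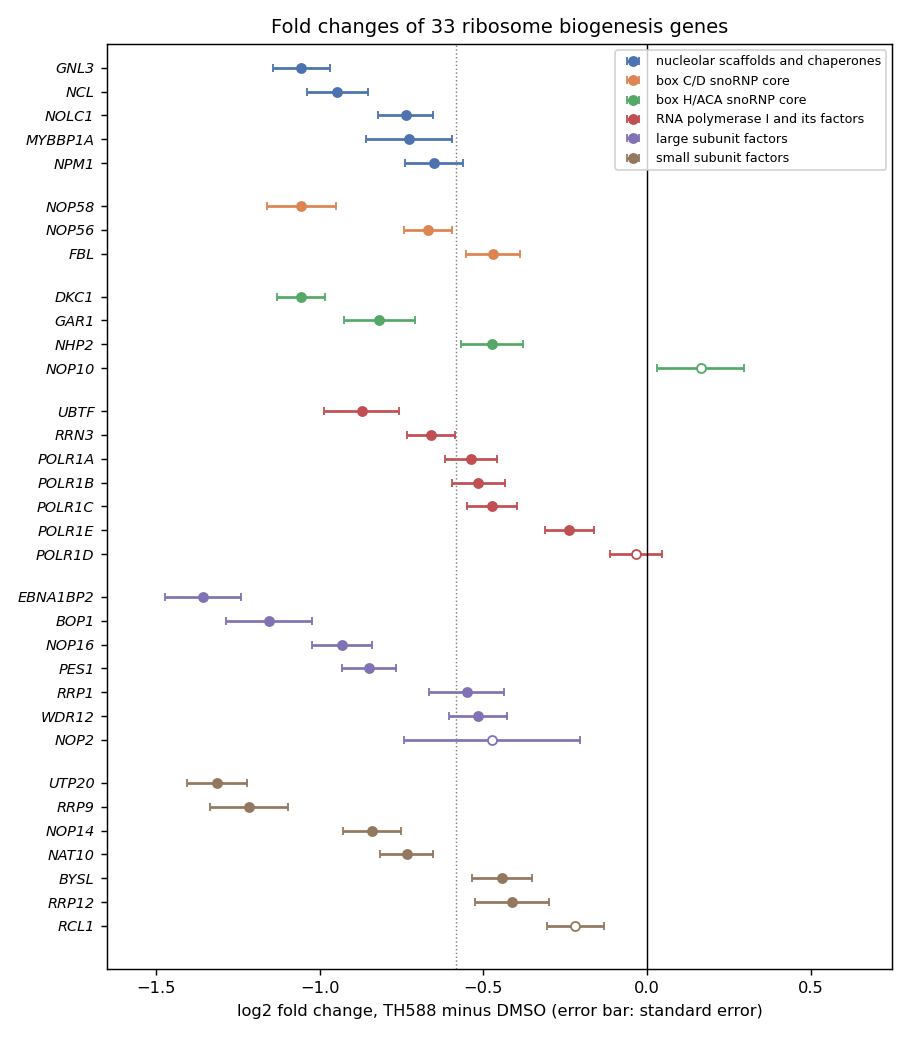
Log2 fold change (TH588 minus DMSO, x axis) of each of the 33 genes (y axis), grouped by role in colour, with standard errors from edgeR as bars. Filled points were called at an adjusted p under 0.05 and open points were not, and the dotted line marks a 1.5-fold fall. 32 of the 33 points lie below 0 and only NOP10, which was not called, lies above it.

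The promoters of many of these genes held the same short sequence, which the choice of genes did not use. RefSeq promoter windows (250 bases before to 50 after an annotated start, GRCh38.p14) were matched to 28 of the 33 genes, 8 of which have 2 windows. The palindrome CACGTG, the canonical E-box that MYC with MAX and related factors can bind, occurred in a window of 14 of the 28 genes (50%), against 12.3% of the 11124 tested genes with a window and 8.77% of all 27305 genes with one. By window the shares were 41.7% of 36, against 9.13% of the 16130 windows of tested genes and 7.26% of all 35116. Matches are given as a description of letters, without evidence of binding. The 30 bases around the match nearest to a start are shown for 4 genes with large falls, for the box C/D methyltransferase gene FBL, and for 3 of the genes without a call, in lower case with the E-box in capitals, 5′ to 3′ on the strand of the gene.
UTP20, chr12:101280083-101280112, strand +: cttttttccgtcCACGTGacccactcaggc
EBNA1BP2, chr1:43172241-43172270, strand -: tggcgctggagcgattcggtggCACGTGga
RRP9, chr3:51941892-51941921, strand -: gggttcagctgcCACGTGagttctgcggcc
GNL3, chr3:52686026-52686055, strand +: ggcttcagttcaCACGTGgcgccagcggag
FBL, chr19:39846356-39846385, strand -: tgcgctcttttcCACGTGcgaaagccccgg
NOP10, chr15:34343130-34343159, strand -: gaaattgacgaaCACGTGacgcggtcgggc
RCL1, chr9:4792936-4792965, strand +: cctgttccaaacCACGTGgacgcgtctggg
NOP2, chr12:6568242-6568271, strand -: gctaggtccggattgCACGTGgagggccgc

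The first letter of the match lay between -11 for NOP10 and 42 for EBNA1BP2 in these windows, counted from 0 at the first base after the 250 upstream bases. Most genes with a match and most genes with a window but no match were called lower. A link between match and fall was not tested. Of the 14 genes with an E-box 11 were lower (median of their log2 fold changes -0.78), and of the 14 with a window but no E-box 13 were lower, with a median of -0.60. The genes with a match were GNL3, MYBBP1A, FBL, NOP10, GAR1, PES1, NOP2, EBNA1BP2, NOP14, RRP9, UTP20, NAT10, RCL1 and BYSL. None of the 7 RNA polymerase I genes was among them, 6 of which had a window. The cell cycle element TTTGAA, searched on both strands, was in 8.33% of the 36 windows, in 10.8% of the windows of tested genes and in 15.2% of all windows, the related TTTCGAA was in 0 of the 36 and in 0.632% of all windows, and a full p53 response element (paired half-sites at most 13 bases apart, no mismatch) was in 0 of the 36 and in 10 of all 35116 windows.

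The nucleolar scaffold and chaperone genes include the most abundant of the 33, and all 5 were lower past 1.5-fold. NPM1 (ENSG00000181163, chr5:171387116-171411137 on GRCh38) encodes nucleophosmin, the histone and ribosomal protein chaperone of the outer nucleolus, and measured 4399.8, 4114 and 4304 CPM in the DMSO libraries against 2449, 2747 and 2965 CPM in the TH588 libraries (log2 fold change -0.65 ± 0.09 SE, edgeR adjusted p = 6.85e-05). NCL (chr2:231453531-231483641) encodes nucleolin, which binds precursor rRNA, and measured 5382, 4629.9 and 5016 CPM after DMSO and 2685, 2781 and 2332 CPM after TH588 (log2 fold change -0.95 ± 0.09 SE, edgeR adjusted p = 5.75e-06). For both genes the groups lay well apart. Per kb of gene length NPM1 stood at 1116 ± 38.0 CPM with DMSO and NCL at 723 ± 54.3 CPM (SD, n = 3 each), the highest levels among the 33. NPM1 reads can also match its pseudogenes. The 49 rows named as such held 0.195% of the level of NPM1, which does not show how reads matching both were counted.

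GNL3, which encodes the GTP-binding protein nucleostemin, measured 289, 305 and 304 CPM in vehicle and 128, 149.8 and 153 CPM in treated cells (log2 fold change -1.06 ± 0.09 SE, edgeR adjusted p = 1.24e-06), and its highest TH588 library lay far below its lowest DMSO library. NOLC1 encodes Nopp140, a chaperone of snoRNPs, and measured 581, 556 and 583 CPM after DMSO and 315, 373 and 345 CPM after TH588 (log2 fold change -0.74 ± 0.08 SE, edgeR adjusted p = 1.59e-05). MYBBP1A, a nucleolar repressor that also binds p53, measured 176, 133 and 141 CPM in vehicle and 83.6, 109 and 79.6 CPM in treated cells (log2 fold change -0.73 ± 0.13 SE, edgeR adjusted p = 0.000593). The spread of MYBBP1A was wide, with DMSO replicate A well above the other DMSO libraries, yet the groups did not overlap.

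Box C/D snoRNPs methylate the ribose of rRNA at sites chosen by their guide RNA, and the 3 genes of their core examined here were lower. FBL, the methyltransferase fibrillarin (chr19:39834458-39846414), measured 347, 354 and 351 CPM after DMSO and 279, 245 and 235 CPM after TH588 and had the smallest fall of the 3 (log2 fold change -0.47 ± 0.08 SE, edgeR adjusted p = 0.000533). NOP56, a scaffold of the particle (chr20:2652145-2658393), measured 559.9, 572 and 565 CPM in vehicle and 341, 363 and 361 CPM in treated cells (log2 fold change -0.67 ± 0.07 SE, edgeR adjusted p = 1.26e-05), with little spread in either group. NOP58 (chr2:202265716-202303666), its paralog and partner, measured 304, 287 and 294 CPM after DMSO and 117, 150.2 and 157 CPM after TH588 (log2 fold change -1.06 ± 0.10 SE, edgeR adjusted p = 5.8e-06). The ratio of NOP58 to NOP56, each per kb, was 0.889, 0.820 and 0.852 in the DMSO libraries against 0.562, 0.677 and 0.712 in the TH588 libraries, and the groups did not overlap (exact two-sided permutation p = 0.1, the smallest possible with 3 against 3). Such a ratio within a library does not depend on the scaling between libraries. Small nucleolar RNA genes overlap 8.74% of the exon bases of NOP56.

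Box H/ACA snoRNPs isomerize uridine to pseudouridine, and their core also belongs to telomerase. DKC1, the pseudouridine synthase dyskerin on the X chromosome (chrX:154762742-154777689), measured 356, 365 and 371 CPM in vehicle and 175, 172 and 178 CPM in treated cells (log2 fold change -1.06 ± 0.07 SE, edgeR adjusted p = 3.61e-07). Its libraries were among the tightest of all members, with an SD of 2.98 CPM in the TH588 group. GAR1 measured 48.4, 59.0 and 55.6 CPM after DMSO and 35.5, 27.7 and 29.6 CPM after TH588 (log2 fold change -0.82 ± 0.11 SE, edgeR adjusted p = 5.6e-05), and NHP2 went from 95.4 ± 7.87 to 68.8 ± 6.84 CPM (log2 fold change -0.47 ± 0.09 SE, edgeR adjusted p = 0.00123). An antisense neighbour, RMND5B, overlaps 27.4% of the exon bases of NHP2, and the library kit does not keep strand, so the value of NHP2 is less certain.

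NOP10, the smallest protein of the H/ACA core (chr15:34341713-34343177), was the exception in this role. It measured 196, 227 and 205 CPM in the DMSO libraries against 296, 197 and 211 CPM in the TH588 libraries, so that TH588 replicate A lay above every other library and the other 2 TH588 libraries lay within the DMSO range. Its change was not called (log2 fold change 0.16 ± 0.13 SE, edgeR adjusted p = 0.336), and without TH588 replicate A its log2 fold change was -0.03. Relative to DKC1 its level was higher in all TH588 libraries: the ratio per kb was 4.19, 4.72 and 4.18 in the DMSO libraries against 12.9, 8.71 and 8.99 in the TH588 libraries (exact permutation p = 0.1), and the 2 lower TH588 values still exceeded all DMSO values. NHP2 relative to DKC1 went from 0.730 ± 0.0728 to 1.10 ± 0.118 without overlap (exact permutation p = 0.1), while GAR1 relative to DKC1 overlapped between the groups (exact permutation p = 0.2). The pairs of partner genes were chosen after their values were seen, and 11 ratios were computed.

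Of the 7 RNA polymerase I genes 6 were lower, against 25.3% of all genes tested. Their median of -0.52 was the smallest fall among the 6 roles, and only the 2 initiation factors UBTF and RRN3 fell past 1.5-fold. UBTF (chr17:44205033-44221626) encodes UBF, which keeps ribosomal DNA open, and measured 214, 168 and 180.1 CPM in vehicle and 94.6, 119 and 93.4 CPM in treated cells (log2 fold change -0.87 ± 0.11 SE, edgeR adjusted p = 5.45e-05). RRN3, which encodes TIF-IA, the factor that couples the polymerase to growth signals, measured 100.3, 101 and 94.5 CPM after DMSO and 62.8, 63.3 and 61.1 CPM after TH588 (log2 fold change -0.66 ± 0.07 SE, edgeR adjusted p = 1.55e-05). The RRN3 libraries varied little within a group, and its 4 pseudogene rows held 0.407% of its level.

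The 2 largest subunits had similar changes. POLR1A, the catalytic subunit, went from 226 ± 11.3 to 156 ± 9.07 CPM and POLR1B from 117 ± 7.13 to 81.7 ± 4.70 CPM (SD, n = 3 each), with log2 fold changes of -0.54 and -0.52, both called (adjusted p = 0.000141 and 0.000226 from edgeR). Their ratio per kb overlapped between the groups, at 1.11 ± 0.108 with DMSO and 1.13 ± 0.123 with TH588 (exact permutation p = 0.8). POLR1E, the subunit related to initiation factors, measured 65.9, 71.3 and 66.5 CPM in vehicle and 57.7, 57.7 and 57.4 CPM in treated cells (log2 fold change -0.24 ± 0.07 SE, edgeR adjusted p = 0.0191), and this call was lost when only library size was normalized for (-0.13) and in 4 of the 6 fits that leave out 1 library, namely without DMSO replicate A (-0.24), B (-0.20) or C (-0.23) or TH588 replicate C (-0.21).

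POLR1C and POLR1D form a pair that RNA polymerases I and III share. POLR1C (chr6:43509702-43562419) went from 89.6 ± 4.81 to 64.5 ± 1.07 CPM (log2 fold change -0.47 ± 0.08 SE, edgeR adjusted p = 0.000258). POLR1D (chr13:27620742-27744237) measured 74.3, 80.0 and 80.5 CPM after DMSO and 78.5, 71.6 and 79.2 CPM after TH588 and was not called (log2 fold change -0.03 ± 0.08 SE, edgeR adjusted p = 0.746), and its 2 groups overlapped. The level of POLR1D relative to POLR1C, per kb, was 0.437, 0.424 and 0.437 in the DMSO libraries against 0.595, 0.560 and 0.604 in the TH588 libraries, again without overlap (exact permutation p = 0.1). Antisense and neighbouring genes overlap 18.2% of the exon bases of POLR1C, which limits the certainty of this ratio.

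Among large subunit factors, 6 of 7 were lower, against 25.3% of all genes tested, with a median of -0.85. BOP1, PES1 and WDR12 encode the PeBoW complex, which is needed to process the 32S precursor of the large subunit rRNA. BOP1 measured 296, 233 and 238 CPM in vehicle and 105, 139 and 99.7 CPM in treated cells (log2 fold change -1.16 ± 0.13 SE, edgeR adjusted p = 1.69e-05), and PES1 measured 318, 295 and 294 CPM after DMSO and 179, 169 and 155 CPM after TH588 (log2 fold change -0.85 ± 0.08 SE, edgeR adjusted p = 4.88e-06). WDR12 went from 136 ± 6.53 to 94.9 ± 9.34 CPM (log2 fold change -0.52 ± 0.09 SE, edgeR adjusted p = 0.000402), the smallest fall of the complex. Relative to PES1, WDR12 per kb went from 0.225 ± 0.0193 to 0.283 ± 0.0104 without overlap (exact permutation p = 0.1), while BOP1 relative to PES1 overlapped between the groups (exact permutation p = 0.3).

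EBNA1BP2 (chr1:43164175-43270936), the human counterpart of yeast Ebp2, had the largest fall of the 33. It measured 190.3, 156 and 173 CPM in the DMSO libraries against 59.4, 80.0 and 62.7 CPM in the TH588 libraries (log2 fold change -1.36 ± 0.12 SE, edgeR adjusted p = 1.88e-06), with all TH588 libraries far below all DMSO libraries. Neighbouring genes overlap 20.5% of its exon bases. NOP16 measured 51.0, 49.3 and 47.7 CPM in vehicle and 23.9, 28.9 and 24.6 CPM in treated cells (log2 fold change -0.93 ± 0.09 SE, edgeR adjusted p = 5.79e-06), with 19.95% of its exon bases overlapped by neighbours, and RRP1 went from 60.3 ± 5.01 to 41.0 ± 6.71 CPM (log2 fold change -0.55 ± 0.11 SE, edgeR adjusted p = 0.00154).

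NOP2 (p120, a methyltransferase of 28S rRNA) had almost no reads in these counts. It held 68, 99 and 82 reads after DMSO and 16, 74 and 65 reads after TH588, or 0.598 to 1.20 CPM (log2 fold change -0.47 ± 0.27 SE, edgeR adjusted p = 0.167). The table also lists ENSG00000285238 on the same strand, which overlaps 53.3% of the exon bases of NOP2 and held 2 reads in all 6 libraries together. How reads in exons shared by 2 genes were counted was not given in the sources used here. Likewise, of 11 small nucleolar RNA genes that touch an exon of a host gene described here, 8 were at 0 reads in all libraries.

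Among small subunit factors the counts were like those of large subunit factors. Of 7 genes 6 were lower, against 25.3% of all genes tested, with a median of -0.74. UTP20 (chr12:101280109-101386616), a very large scaffold protein of the small subunit processome, measured 268, 284 and 281 CPM in the DMSO libraries against 97.4, 116 and 120.2 CPM in the TH588 libraries (log2 fold change -1.32 ± 0.09 SE, edgeR adjusted p = 3.91e-07). RRP9, a protein of the U3 snoRNP that guides early cleavages (chr3:51933430-51941941), measured 107, 91.1 and 92.4 CPM after DMSO and 38.0, 49.9 and 36.6 CPM after TH588 (log2 fold change -1.22 ± 0.12 SE, edgeR adjusted p = 5.05e-06). In both genes all TH588 libraries stood far below all DMSO libraries. NOP14, needed for 18S rRNA formation, measured 134, 118 and 125 CPM in vehicle and 64.7, 76.5 and 69.2 CPM in treated cells (log2 fold change -0.84 ± 0.09 SE, edgeR adjusted p = 9.29e-06), although its antisense gene NOP14-AS1 overlaps 17.1% of its exon bases. NAT10, which acetylates cytidines of 18S rRNA, measured 239.6, 246 and 236 CPM after DMSO and 132, 156 and 145 CPM after TH588 (log2 fold change -0.74 ± 0.08 SE, edgeR adjusted p = 1.49e-05).

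Smaller falls were called for BYSL, which encodes bystin of the maturing small subunit, from 30.9 ± 1.04 to 22.6 ± 2.08 CPM (log2 fold change -0.44 ± 0.09 SE, edgeR adjusted p = 0.00162), and for RRP12, whose product acts in subunit export, from 94.2 ± 8.62 to 70.6 ± 11.8 CPM (log2 fold change -0.41 ± 0.11 SE, edgeR adjusted p = 0.00987). Both calls were lost when only library size was normalized for (BYSL -0.33, adjusted p = 0.0505, and RRP12 -0.30, adjusted p = 0.131, both from edgeR). The call of RRP12 was also lost without DMSO replicate A (-0.32) and without TH588 replicate C (-0.34). RCL1, which is needed for an early cleavage of precursor rRNA, measured 44.0, 39.1 and 44.3 CPM in vehicle and 33.8, 36.9 and 38.5 CPM in treated cells and narrowly missed the threshold (log2 fold change -0.22 ± 0.09 SE, edgeR adjusted p = 0.0549), and it passed without DMSO replicate B at -0.28. Its groups did not overlap.

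**Figure D2:**
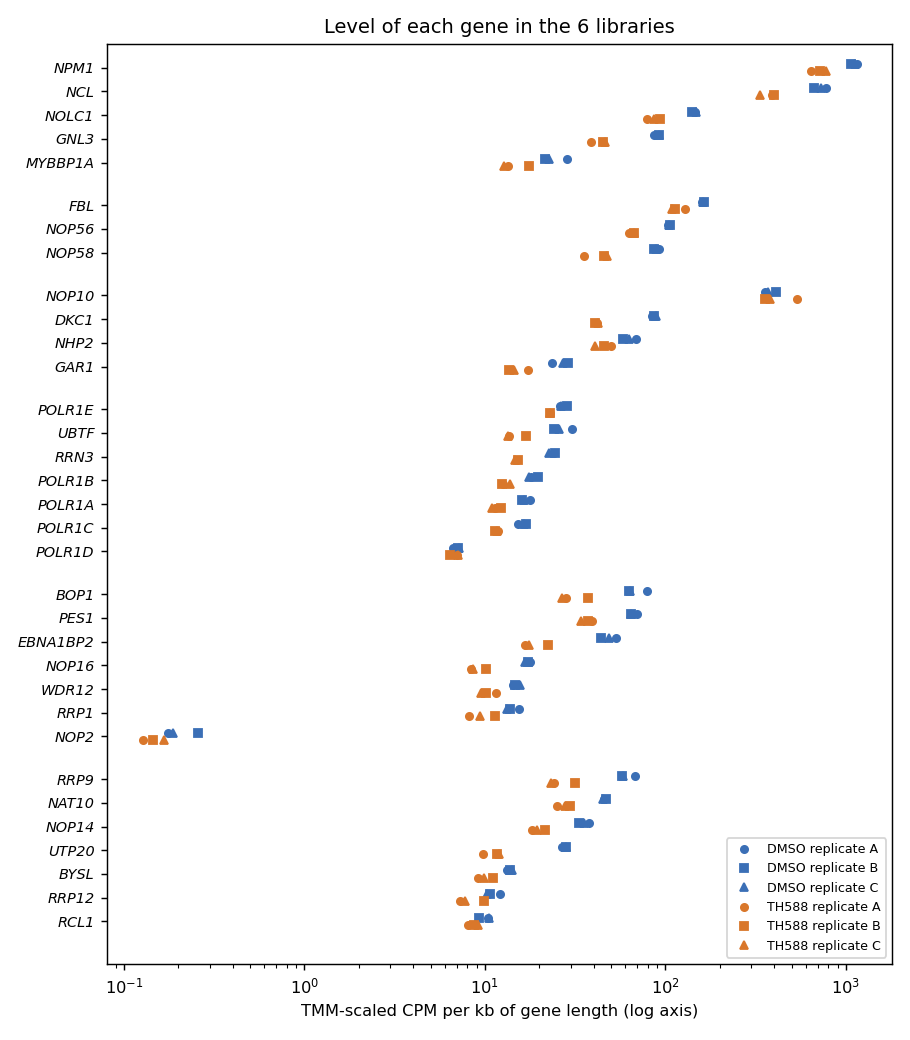
Level of each of the 33 genes (y axis, grouped by role) in each library as TMM-scaled CPM per kb of gene length on a log axis (x axis), with DMSO in blue and TH588 in orange and a marker shape per replicate. NPM1 and NCL are highest, NOP2 is far below the rest at under 1 CPM per kb, and the orange points lie left of the blue points for all genes but NOP10 and POLR1D.

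The other genes of the pathway, listed by function with earlier results of these data known, showed the same direction. The counts for each list below stand beside 25.3% of all genes tested that were lower and 24.2% that were higher. Of 43 further small subunit processome genes 41 were lower and 1 was higher, with a median of -0.61. Genes of these lists that were not called are named after their values were seen. The largest falls were MPHOSPH10, a partner of the U3 snoRNP (log2 fold change -1.23), BMS1, a GTPase, from 385 ± 3.76 to 179 ± 10.0 CPM (-1.10), and NOL6, from 77.9 ± 6.06 to 37.3 ± 4.43 CPM (-1.06). UTP3 was the gene that rose, from 33.1 ± 1.55 to 40.2 ± 1.06 CPM (0.28), and FCF1 was not called (-0.06, adjusted p = 0.654 from edgeR). Of 12 genes of late small subunit maturation 9 were lower, led by the kinase gene RIOK2 (-1.19), TSR1 (-1.02) and PNO1 (-0.90), while RIOK3 rose from 16.8 ± 1.18 to 24.8 ± 1.31 CPM (0.56) and TSR2 and TSR3 were not called.

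Of 50 further large subunit genes 48 were lower, with a median of -0.70. LYAR fell from 97.6 ± 7.95 to 36.0 ± 6.03 CPM (-1.43), URB2 from 47.1 ± 2.19 to 20.7 ± 0.822 CPM (-1.18) and MRTO4 from 88.1 ± 4.21 to 41.8 ± 6.75 CPM (-1.07). NOP53, whose product is known to bind p53 and to retain the exosome at precursor rRNA, rose from 81.6 ± 5.96 to 123 ± 26.0 CPM (log2 fold change 0.59 ± 0.13 SE, edgeR adjusted p = 0.00267). PPAN was not called, but it had few reads (1.39 ± 0.404 CPM with DMSO, log2 fold change -0.13 ± 0.35 SE).

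Of 14 further RNA polymerase I subunit and selectivity factor genes 8 were lower and 6 were not called, with a median of -0.33, and 5 were lower with scaling by library totals alone. The subunit genes POLR1F (-0.95) and POLR1H (-0.69) and the termination factor gene TTF1 (-0.59) were the largest falls of sufficient abundance. The subunit gene POLR1G, named after its values were seen, fell further (log2 fold change -1.26 ± 0.17 SE, edgeR adjusted p = 6.92e-05). Its average log2 CPM of 1.98 was just under the limit of 2. With no call were POLR2H, POLR2K and POLR2L, which are shared by all nuclear polymerases, and TAF1A, TAF1B and TAF1C, subunits of the selectivity factor SL1, with log2 fold changes between -0.26 and -0.07. The SL1 genes TAF1D (-0.32) and TBP (-0.34) were lower, and the groups overlapped for TBP. Of 21 RNA polymerase III genes 16 were lower and 1 was higher, with a median of -0.41, and under the same change of scaling 9 were lower. POLR3K (-1.35), POLR3B (-1.29) and GTF3A (-1.15) had the largest falls named by the rule, and CRCP, BRF2, GTF3C1 and GTF3C5 were not called. POLR3GL rose and measured 10.1, 7.19 and 9.29 CPM after DMSO and 30.1, 24.7 and 20.7 CPM after TH588 (adjusted p = 8.44e-06 from edgeR), whereas its paralog POLR3G, named after its values were seen, measured 19.6, 19.6 and 21.1 CPM in vehicle and 9.83, 9.77 and 10.1 CPM in treated cells (log2 fold change -1.02 ± 0.10 SE, edgeR adjusted p = 4.59e-06). The products of the 2 paralogs occupy the same place in the enzyme, and the groups did not overlap for either, in opposite order.

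Of 11 snoRNP assembly genes 8 were lower (median -0.52), led by NUFIP1 (-1.02), RUVBL1 (-0.80) and NAF1 (-0.64), and ZNHIT3, PIH1D1 and NOPCHAP1 were not called. Among 14 genes of the RNA exosome and its cofactors, which trim precursor rRNA, 10 were lower (median -0.45), led by MPHOSPH6 (-1.25), EXOSC8 (-1.24) and EXOSC3 (-0.99), and EXOSC5, EXOSC6, EXOSC7 and C1D were not called. The protein genes of RNase P and RNase MRP had 7 of 10 lower (median -0.64), led by POP1 (-1.11), RPP30 (-1.04) and RPP40 (-0.84), and RPP14, RPP21 and RPP38 were not called. RPP14 and RPP21 had few reads, at 0.413 and 0.401 CPM with DMSO. Their log2 fold changes had standard errors of 0.35 and 0.39, so the lack of a call says little for these genes. In all 8 lists together 147 of 175 genes were lower and 4 were higher, against 25.3% and 24.2% of all genes tested. The 4 were UTP3, RIOK3, NOP53 and POLR3GL. An E-box was in a window of 26.4% of the 148 of these genes that had one, from 0 of 8 snoRNP assembly genes to 5 of 12 genes of late small subunit maturation.

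**Figure D3:**
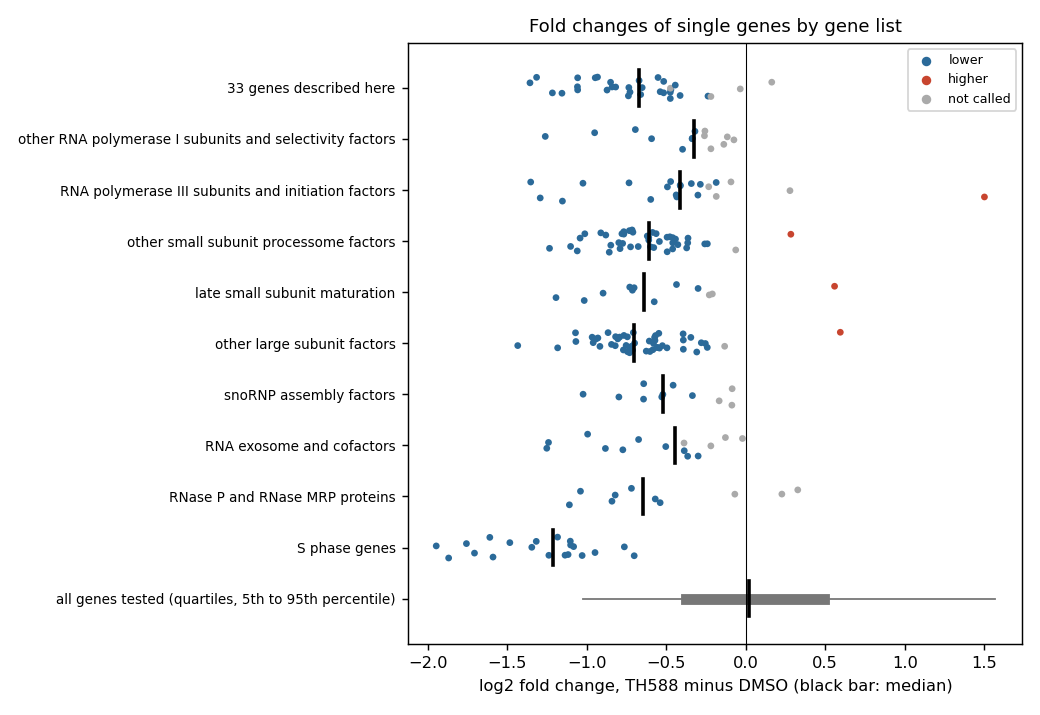
Log2 fold change (TH588 minus DMSO, x axis) of each gene in each list (y axis), coloured by call, with black bars at the median and the distribution of all 15844 genes tested in the bottom row. The median of the 33 genes is -0.67 and that of all genes is 0.02, the S phase list lies furthest left at -1.21, and single red points mark UTP3, RIOK3, NOP53 and POLR3GL.

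**Figure D4:**
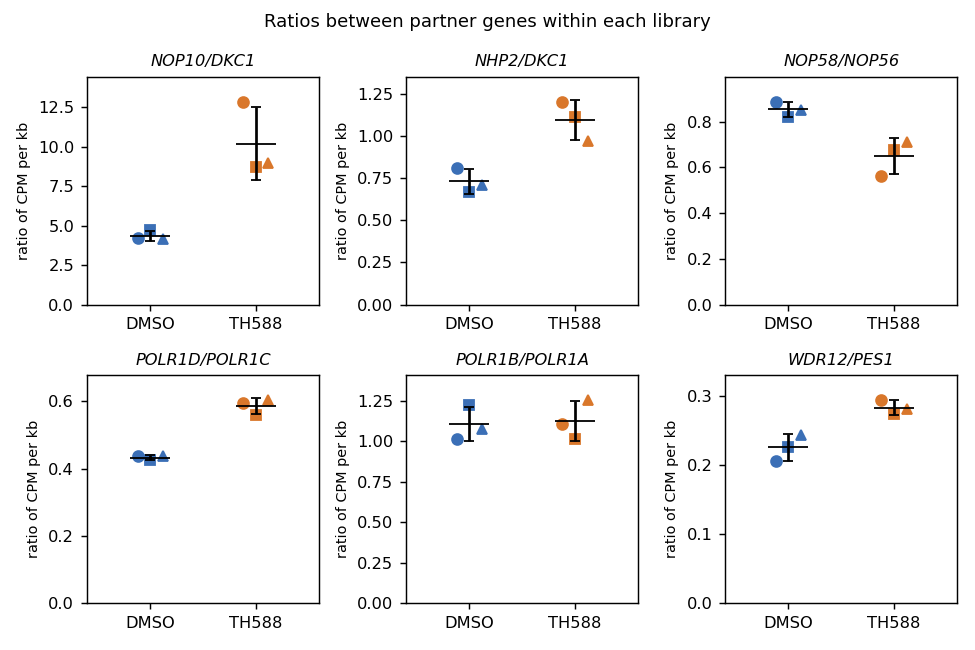
Ratio of 2 partner genes, each in CPM per kb (y axis, from 0), in each library (points, with a marker shape per replicate) with the mean and SD of each group (3 libraries) as bars. The groups do not overlap for NOP10/DKC1, NHP2/DKC1, NOP58/NOP56, POLR1D/POLR1C and WDR12/PES1, and they overlap for POLR1B/POLR1A.

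Several of the genes host small nucleolar RNAs. The table holds 21 rows of such RNAs within 6 of the genes, 10 of them in introns and 11 touching an exon of the host. Of all 21 rows, 8 had enough reads to test. Of these 8, 1 was lower, where 25.3% of all genes tested were lower. SNORD11, a box C/D RNA in NOP58, was lower, at 2.23 ± 0.272 CPM after DMSO against 1.22 ± 0.209 CPM after TH588 (log2 fold change -0.90 ± 0.21 SE, edgeR adjusted p = 0.00324). The other 7 were not called, among them SNORA75 in NCL at 18.3 ± 3.41 CPM after DMSO against 12.4 ± 6.89 CPM after TH588 (log2 fold change -0.61, adjusted p = 0.0967 from edgeR), with TH588 replicate A at 20.3 CPM and TH588 replicates B and C at 8.38 and 8.39 CPM. Libraries selected for polyA RNA do not measure mature small nucleolar RNAs well, and these values are reads that reached such libraries, not levels of the mature RNA. Ribosomal RNA itself was likewise not the target. The rows of 5.8S rRNA on chromosome 21 summed to 5108, 475 and 0 reads after DMSO and to 6833, 7 and 2 reads after TH588, so the 2 replicate A libraries carried nearly all of them and no comparison of treatments can be read from them.

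DMSO replicate A was the highest DMSO library for 15 of the 33 genes, against 5621 of all 15844 genes tested. TH588 replicate B was the highest TH588 library for 16 of the 33, against 5398 of all genes tested. Both held for 11 of the 33 genes, against 18.9% of all genes tested. These were NCL, MYBBP1A, POLR1A, UBTF, BOP1, NOP16, RRP1, EBNA1BP2, NOP14, RRP9 and RRP12. 27 of the 33 genes were lower without DMSO replicate A and 29 without TH588 replicate B. Without TH588 replicate A, the shallowest library, 29 were lower, with a median of -0.65.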

How the data were processed

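According to the study's methods and processing notes, polyA RNA libraries were made with the TruSeq RNA kit v2, TopHat aligned the reads to GRCh38, featureCounts 1.4.6 counted them for each gene, and the authors compared groups with DESeq2. The deposited values are raw counts for 58336 Ensembl genes, while the methods name UCSC gene models. Symbols were matched by Ensembl identifier, and gene coordinates are those of the count table. The genes, the 13 further lists and the rule for named genes (every member; from each further list the 3 largest called falls and rises among genes whose groups do not overlap and whose average log2 CPM reaches 2) were chosen with earlier results of these data known. Counts were compared with edgeR 4.0.16 in R 4.3.3 (TMM, default filter, quasi-likelihood test, Benjamini-Hochberg adjustment over 15844 genes). The procedure was tested on simulated counts, where a first bar on overall recovery was missed by DESeq2 1.42.0 and replaced by one on genes with a log2 CPM of at least 2, without a change to the comparison. DESeq2, limma 3.58.1 (voom) and other settings served as alternatives. Replicates differed by more than sampling noise (chi-square per degree of freedom 25.0 to 176) and were each counted once. Even in the smallest library (28537837 counts), 32 of the 33 genes exceeded 20 CPM. p-values measure the spread between 3 libraries of 1 line. No protein sequences were used here.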

Additional observations from a re-analysis of the deposited data

How the results depend on the processing

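The number of the 33 genes called lower stayed between 26 and 29 under all 17 alternatives run, and their median log2 fold change between -0.687 and -0.565. With library size only, the median of the 33 was -0.565. Of the 14 further RNA polymerase I genes 5 were lower, with a median of -0.223 over all 14. Of the 21 RNA polymerase III genes 9 were lower, with a median of -0.308 over all 21. Under that scaling the other medians were -0.499 for small subunit processome, -0.530 for late small subunit, -0.425 for snoRNP assembly, -0.348 for exosome, -0.594 for large subunit, -0.528 for RNase P and MRP and -1.105 for S phase genes, while the median of all genes moved from 0.019 to 0.126. The exosome median was -0.504 with limma-voom. Across the fits that each left out 1 library, the median of the 33 ranged from -0.687 to -0.629, and medians ranged from -0.369 to -0.277 for further RNA polymerase I genes, from -0.523 to -0.440 for snoRNP assembly, from -0.567 to -0.411 for the exosome, from -0.740 to -0.489 for RNase P and MRP, from -0.654 to -0.573 for late small subunit and from -0.709 to -0.595 for processome genes. POLR1D, which was not called in any fit, was at 0.068 when library sizes alone set the scale and ranged from -0.050 to 0.011 without single libraries, and NOP10 ranged from -0.026 to 0.274. The cause was not tested. Among the values of single genes under the alternatives, 544 kept direction and call, 12 lost the call (POLR1E, RRP12 and BYSL), 1 gained it (RCL1) and 4 changed sign.

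The labels do not say that a replicate letter marks a shared batch, and the correlations between the deviations of DMSO and TH588 libraries of the same letter were -0.07, -0.08 and 0.00, so the libraries were not taken as paired, although the 5.8S rRNA rows were highest in both replicate A libraries. The fit with a replicate block called 7195 genes, 7129 of them shared with the 7852 of the unblocked comparison. In it 28 of the 33 were lower, and POLR1E lost its call (-0.237, adjusted p = 0.0613 from edgeR). A count of 3 corresponds to 0.105 CPM in TH588 replicate A, below the level of each of the 33 genes and closest to that of NOP2.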
